A study of Mus musculus with 36 samples.

Results

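Cytotoxic lymphocytes kill target cells by emptying granules that hold granzymes and perforin, and 9 of their genes were followed here, out of 52636 genes listed for each of 36 RNA sequencing libraries. The genes were chosen by symbol and found by Ensembl identifier. They are the effector genes Gzma and Gzmb (granzymes A and B), Prf1 (perforin) and Nkg7 (a granule membrane protein), the receptor genes Klrk1 (NKG2D), Ncr1 (NKp46) and Il2rb (the beta chain shared by the IL-2 and IL-15 receptors), and the T cell genes Cd3e (a chain of the T cell receptor complex) and Cd8a (the CD8 coreceptor). The study asked whether dimers of caspase-8 and its paralog cFLIP, encoded by Cflar, mediate apoptosis. It removed cFLIP from mice whose caspase-8 cannot process itself fully. Mice whose caspase-8 cannot cleave were set beside them.

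The first intestine set, called the D387A set, held whole intestines of E18.5 mouse embryos of 6 genotypes. These were Mlkl-/- controls, embryos homozygous for Casp8 D387A (also named 1xDA, with intact Mlkl), D387A Cflar-/- Mlkl-/- embryos, and D387A Cflar-/- Mlkl-/- embryos that also lacked Casp1, Casp1 and Ifnar1, or Casp1 and Fadd. Caspase-8 D387A lacks the aspartate at which its catalytic subunits are separated. The C362A set held E18.5 intestines of Mlkl-/- controls and of C362A Mlkl-/-, C362A Mlkl-/- Casp1-/- and C362A Cflar-/- Mlkl-/- embryos, in which the catalytic cysteine of caspase-8 was replaced. Mouse embryonic fibroblasts (MEFs) from E14.5 embryos were Mlkl-/- or D387A Cflar-/- Mlkl-/-. Each of the 12 groups had 3 libraries. All the groups except D387A alone carried the Mlkl deletion, so MLKL, the executioner of necroptosis, was missing from cases and controls alike, and the D387A and Mlkl-/- groups differed at both loci. The mutations were present in every cell of the embryo, and a whole intestine mixes epithelium, mesenchyme and blood-borne cells.

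Granzymes A and B are serine proteases that enter a target cell through pores formed by perforin, and granzyme B cleaves caspases and their substrates there. NKG2D and NKp46 are activating receptors of natural killer (NK) cells and of some T cells and innate lymphoid cells, and IL-15 acting through the IL-2 receptor beta chain maintains these cells. The intestine is known for lymphocytes that lie within its epithelium, many of which carry granzymes, but these are sparse before birth.

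All 9 genes are protein coding. On the GRCm38 build Gzma lies at chr13:113093825-113100981 and Gzmb at chr14:56258838-56262260, both on the minus strand. Prf1 lies at chr10:61297833-61304680 and Nkg7 at chr7:43437073-43438249 on the plus strand. Klrk1 (chr6:129610323-129623864) and Il2rb (chr15:78479256-78495271) are on the minus strand, and Ncr1 (chr7:4337724-4345164) is on the plus strand. Cd3e lies at chr9:44998740-45009627 on the minus strand and overlaps the annotated genes Gm48719 and Gm48720, so its few reads are uncertain, since the counting is not stated to use strand. Cd8a lies at chr6:71373427-71379173 on the plus strand.

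RefSeq gave a promoter for 8 of the 9 genes on GRCm38.p6. The 250 bases before the RefSeq start are shown for the 4 of them that were called in both Casp1 loss comparisons (the fifth, Il2rb, had no entry), because Runx3, a transcription factor of cytotoxic lymphocytes, was itself measured. Capitals mark the Runx core TGTGGT, or ACCACA, its reverse complement. Each sequence is written 5′ to 3′ on the strand of its gene.
Gzmb, chr14:56262335-56262584, minus strand: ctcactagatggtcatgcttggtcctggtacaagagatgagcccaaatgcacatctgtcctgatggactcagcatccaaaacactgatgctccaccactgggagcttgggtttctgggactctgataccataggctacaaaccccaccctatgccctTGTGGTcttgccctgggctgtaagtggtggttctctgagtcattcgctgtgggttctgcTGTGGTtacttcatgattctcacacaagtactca
Prf1, chr10:61297586-61297835, plus strand: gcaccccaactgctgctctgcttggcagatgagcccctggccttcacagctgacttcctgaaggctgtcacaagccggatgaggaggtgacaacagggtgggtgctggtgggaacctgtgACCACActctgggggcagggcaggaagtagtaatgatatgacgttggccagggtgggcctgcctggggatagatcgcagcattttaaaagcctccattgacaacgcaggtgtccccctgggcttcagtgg
Gzma, chr13:113100982-113101231, minus strand: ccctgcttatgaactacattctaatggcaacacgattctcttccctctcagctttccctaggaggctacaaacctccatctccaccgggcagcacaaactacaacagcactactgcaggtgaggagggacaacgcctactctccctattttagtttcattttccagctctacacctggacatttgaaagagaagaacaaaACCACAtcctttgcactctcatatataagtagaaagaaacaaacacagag
Klrk1, chr6:129623865-129624114, minus strand: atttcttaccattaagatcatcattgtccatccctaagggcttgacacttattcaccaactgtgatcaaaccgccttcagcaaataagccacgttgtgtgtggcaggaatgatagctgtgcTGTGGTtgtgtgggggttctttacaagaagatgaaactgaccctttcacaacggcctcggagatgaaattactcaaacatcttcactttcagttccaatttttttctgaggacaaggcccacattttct

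The Runx core was found for 6 of 8 genes (Gzma, Gzmb, Klrk1, Ncr1, Nkg7 and Prf1, not Cd3e or Cd8a), and in 14% of all 32841 promoter windows of the same length. These windows leave out a whole chromosome and incomplete sequences, and some genes have several windows. Both strands were searched, and the motifs were picked with the expression results known. The T-box core GGTGTGA matched only Nkg7 (3.33% of all windows), as did the STAT motif TTCNNNGAA (7.02%). The AP-1 motif TGANTCA matched Gzmb (6.75%), the interferon-stimulated response element matched Gzma (2.98%), and the CRE TGACGTCA matched none of the 8 (1.55%). A loose NF-kB motif matched Gzmb, Ncr1, Nkg7 and Prf1, and 45.8% of all windows. These are matches of letters, not measured binding sites.

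The libraries held 17943524 to 32307629 reads on genes. Reads of Casp1 numbered 0 to 5 in every Casp1-/- intestine and 952 to 3489 in the other intestines, and Fadd had 15 to 23 reads in each Fadd-/- intestine. Ifnar1 kept 813 to 893 reads in each Ifnar1-/- intestine, at 33.2 to 37.9 CPM against 76.1 to 93.6 in the other intestines of the set, so its reads were reduced and not absent. Reads remained on Mlkl and Cflar in their knockouts, so they did not check those labels. Within the D387A Cflar-/- Mlkl-/- Casp1-/- group the third library stood apart, with 966 reads of Mlkl against 138 and 166, and with 2190 reads of the hemoglobin gene Hba-a1 against 12505 and 6661. Results that rest on this group are given with and without it where a call differs.

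Levels are given as RPKM, reads scaled by library size and gene length, and a change as a log2 fold change with its standard error (SE) from edgeR, whose adjusted p covers every gene tested. A gene was called, and is said here to have risen or fallen, when it changed more than 2-fold with an adjusted p under 0.05. Only 6 of the 9 genes had enough reads for the test in the D387A set, and 8 had enough in the C362A set. Cd3e was tested in neither, and Ncr1 and Cd8a were not tested in the D387A set. A gene that reaches the test only through a group where it is high is favoured to differ, so the counts below are a description of the genes that could be tested. In the D387A set this holds for Prf1. It had 65 to 83 reads per D387A Cflar-/- Mlkl-/- library and 0 to 4 per library of the other genotypes. In the C362A set Prf1 passed only through C362A Mlkl-/- and C362A Cflar-/- Mlkl-/- intestines (25 to 64 reads, against 1 to 4). Its calls in comparisons with these groups were favoured by the filter. Within a set the comparisons share their Mlkl-/- controls, and those of Casp1, Ifnar1 and Fadd loss share the group without Casp1, so they are not independent of each other.

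In Mlkl-/- intestines the cytotoxic genes were low. Gzma was the most abundant per length of transcript, at 3.78 ± 1.03 RPKM (SD, n = 3) in the D387A set and 4.92 ± 0.653 in the C362A set. Il2rb stood at 0.731 ± 0.0624 and 1.10 ± 0.201 RPKM, and Nkg7 at 0.808 ± 0.0805 and 0.532 ± 0.184. Gzmb was lower still, with 0.408 ± 0.338 and 0.333 ± 0.131 RPKM, and Prf1 rested on 1 read in all 3 Mlkl-/- libraries of the D387A set and on 7 in those of the C362A set. The T cell genes stayed near the limit of the counting in every intestine of both sets, with 0 to 11 reads of Cd3e and 0 to 21 reads of Cd8a per library. A mature cytotoxic T cell is defined by these genes, so the name of the list rests here on its granule and receptor genes.

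**Figure D1:**
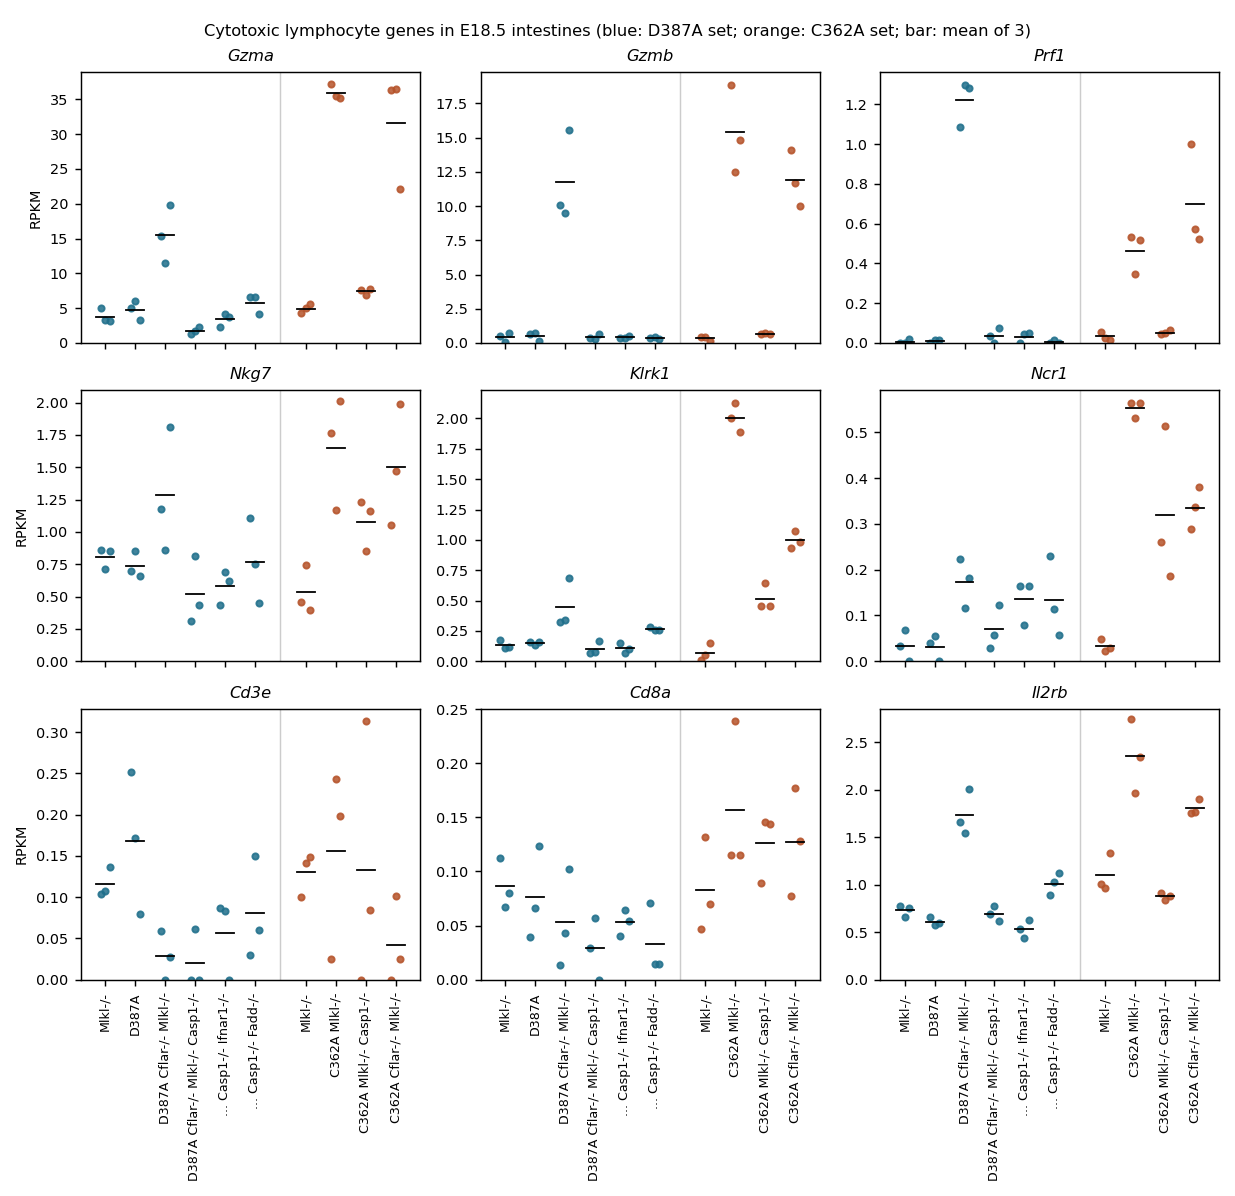
RPKM of each gene (y axis, linear from 0, its own scale in each panel) in each intestine library (points) by genotype, with the mean of 3 libraries as a bar, the D387A set in blue and the C362A set in orange; "..." stands for D387A Cflar-/- Mlkl-/-. Gzmb and Prf1 were high in D387A Cflar-/- Mlkl-/-, C362A Mlkl-/- and C362A Cflar-/- Mlkl-/- intestines and near 0 elsewhere, whereas Cd3e and Cd8a stayed at or below 0.313 RPKM in every library.

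Caspase-8 D387A on its own gave no call. In D387A against Mlkl-/- intestines 0 of 6 tested genes were called by edgeR, beside 0.00545% of all 18360 genes tested, and none of the 6 had an unadjusted p under 0.05. Gzma had 82, 145 and 86 reads against 99, 62 and 63, a log2 fold change of 0.33 ± 0.30 (SE, 95% interval -0.25 to 0.91). For Gzmb the interval ran from -0.91 to 1.42 and for Klrk1 from -0.65 to 0.99, so changes within those limits were not detectable at this depth. Il2rb lay below every control (0.570 to 0.660 RPKM against 0.660 to 0.778), as did 6.26% of all genes, with an adjusted p of 0.966.

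In D387A embryos that lacked Cflar and Mlkl, most of the tested effector and receptor genes rose. No D387A Mlkl-/- group was sequenced, so this comparison changes Casp8 and Cflar together. In D387A Cflar-/- Mlkl-/- against Mlkl-/- intestines 5 of 6 tested genes rose and none fell, beside 9.4% of all genes that rose. Prf1, counted among the 5, reached the test only through the mutant group. The median log2 fold change of the 6 was 1.90, beside -0.01 over all genes tested. For each of the 6 the mutant libraries lay above every control, as for 34.3% of all genes.

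Gzmb, which encodes the protease that activates caspases in targets, had 14, 1 and 20 reads in Mlkl-/- intestines and 336, 305 and 560 in D387A Cflar-/- Mlkl-/- intestines. All 3 mutant libraries exceeded every control by more than an order of magnitude. Mean levels were 0.408 ± 0.338 RPKM in controls and 11.7 ± 3.35 in mutants, and Gzmb rose 28.2-fold (log2 fold change 4.82 ± 0.46, SE, adjusted p = 1.07e-07 by edgeR, 5.43 without the third control). Prf1, the pore former, had 0, 0 and 1 reads in controls and 65, 75 and 83 in mutants. With 223 reads against 1 the ratio of pooled reads was 186, and its 95% counting interval ran from 33.1 to 7382, so the increase was clear and its size was not. The fitted log2 fold change of 7.13 ± 0.69 (adjusted p = 1.21e-07) depended on the prior count (4.93 with a prior count of 2) and on the third control (9.15 without it).

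Gzma started from a higher level and changed less, from 99, 62 and 63 reads to 357, 260 and 497. The mutant libraries lay above all controls, and the log2 fold change was 2.04 ± 0.29 (adjusted p = 8.6e-06), or 4.11-fold. Nkg7 had 15, 12 and 15 reads in controls and 24, 17 and 40 in mutants. The groups did not overlap, but the log2 fold change of 0.67 ± 0.36 did not pass the test (adjusted p = 0.118).

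Among the receptors, Klrk1 went from 12, 7 and 8 reads to 26, 26 and 59, a log2 fold change of 1.75 ± 0.37 (adjusted p = 0.000508). Il2rb went from 43, 35 and 42 reads to 107, 96 and 140, a log2 fold change of 1.25 ± 0.17 (adjusted p = 4.72e-06). For both genes the lowest mutant library was above the highest control. Ncr1 had 1, 2 and 0 reads in controls and 8, 4 and 7 in mutants, a pooled ratio of 5.28 with a 95% counting interval of 1.56 to 27.9, which covers counting error only.

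The T cell genes did not go the same way in the reads. Cd3e had 3, 3 and 4 reads in controls and 2, 0 and 1 in D387A Cflar-/- Mlkl-/- intestines, a pooled ratio of 0.250 (0.0443 to 0.972). Cd8a had 7, 4 and 5 against 1, 3 and 8, a ratio of 0.626 (0.270 to 1.41). Neither was tested across replicates, and fewer than 20 reads stand behind each group.

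**Figure D2:**
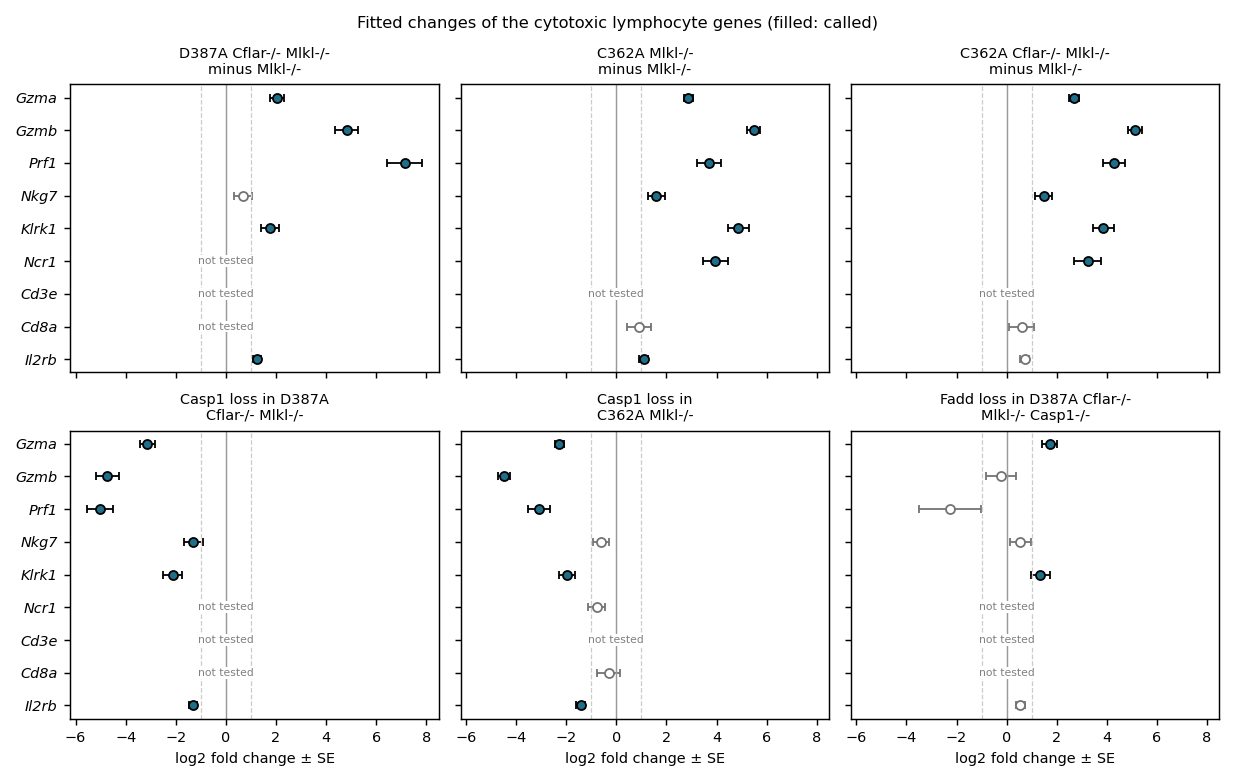
Log2 fold change (x axis) of each gene in 6 comparisons, with the SE as a bar; filled points were called, open points were tested and not called, and dashed lines mark a 2-fold change. In the upper row Gzmb lies at 4.82, 5.49 and 5.12, and in the lower row Casp1 loss took Gzmb, Prf1, Gzma, Klrk1 and Il2rb down in both sets while Fadd loss raised Gzma and Klrk1.

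Deleting Casp1, which encodes the inflammatory caspase-1, lowered the tested genes in D387A Cflar-/- Mlkl-/- intestines. All 6 tested genes fell, beside 4.51% of all genes that fell, with a median log2 fold change of -2.63 beside 0.03 over all genes. Prf1, counted among the 6, reached the test only through the D387A Cflar-/- Mlkl-/- group. Gzmb had 336, 305 and 560 reads with Casp1 and 12, 10 and 19 without it, and 3.76% of the mean RPKM was left (log2 fold change -4.73 ± 0.45, adjusted p = 2.77e-07). The libraries without Casp1 overlapped the Mlkl-/- controls for this gene. Prf1 dropped from 65, 75 and 83 reads to 2, 0 and 4, or 2.97% of the mean (-5.02 ± 0.53, adjusted p = 7.85e-07, -5.96 without the third Casp1-/- library).

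Gzma went from 357, 260 and 497 reads to 29, 37 and 49, which left 11.3% (log2 fold change -3.14 ± 0.31, adjusted p = 3.6e-07). Each of these 3 values is lower than every Mlkl-/- control, and against the controls Gzma fell with a log2 fold change of -1.10 ± 0.32 (adjusted p = 0.0224), the only call among 6 genes (2.18% of all genes fell). That call was lost without the first or second library of the Casp1-/- group (adjusted p = 0.0866 and 0.0543) or without the first control (0.123). Klrk1 fell by 2.12 on the log2 scale (SE 0.37, adjusted p = 0.000182) to 23.0% of its mean, and Il2rb fell by 1.32 (SE 0.16, adjusted p = 5.05e-06) to 39.9%. Nkg7 had 24, 17 and 40 reads with Casp1 and 6, 16 and 8 without it, and its call (-1.30 ± 0.38, adjusted p = 0.00905) was lost without the third D387A Cflar-/- Mlkl-/- library (-0.96, adjusted p = 0.0658) or without the first Casp1-/- library (-1.03, adjusted p = 0.0501). Without the third Casp1-/- library, which stood apart in Mlkl reads, all 6 genes were still called.

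Further deletion of Ifnar1, a chain of the type I interferon receptor, gave no call among these genes. Against D387A Cflar-/- Mlkl-/- Casp1-/- intestines 0 of 6 were called by edgeR, beside 5.31% of all genes, and 2 (Gzma and Il2rb) had an unadjusted p under 0.05. Gzma had 55, 103 and 90 reads against 29, 37 and 49, a log2 fold change of 0.96 ± 0.32 (adjusted p = 0.0321) that stayed just under the 2-fold threshold. It passed without the third Casp1-/- library (1.20, adjusted p = 0.0136) or without the first Ifnar1-/- library (1.17, adjusted p = 0.0128). Gzmb had 13, 13 and 18 reads, close to the 12, 10 and 19 without the Ifnar1 deletion. Against Mlkl-/- controls none of the 6 was called either (12.4% of all genes were), and 1, Il2rb, had an unadjusted p under 0.05. Il2rb lay below every control, with a log2 fold change of -0.46 ± 0.18 (adjusted p = 0.0429 by edgeR) that was under the threshold of size.

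Deletion of Fadd, the adaptor that brings caspase-8 into its complexes, raised part of the list. Against D387A Cflar-/- Mlkl-/- Casp1-/- intestines 2 of 6 genes rose, beside 2.56% of all genes. Gzma had 151, 151 and 94 reads with Fadd deleted and 29, 37 and 49 with Fadd present, and every Fadd-/- library was higher (log2 fold change 1.72 ± 0.31, adjusted p = 0.00125). Klrk1 had 22, 20 and 20 reads against 5, 6 and 12 (1.35 ± 0.40, adjusted p = 0.0255), a call that was lost without the first or second Casp1-/- library (adjusted p = 0.114 and 0.0921) and without the first or second Fadd-/- library (0.0665 and 0.0561).

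Il2rb had an adjusted p of 0.0338 with a log2 fold change of 0.55 ± 0.17, under the threshold of size. Gzmb and Prf1 gave no call. Gzmb had 13, 14 and 10 reads against 12, 10 and 19 (-0.21 ± 0.60, 95% interval -1.38 to 0.96), and Prf1 had 0, 1 and 0 against 2, 0 and 4. Against Mlkl-/- controls none of 6 genes was called in the Fadd-/- group, beside 3.78% of all genes, and 2 (Klrk1 and Il2rb) had an unadjusted p under 0.05. Klrk1 came nearest, with a log2 fold change of 0.98 ± 0.39 (adjusted p = 0.0894).

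Ordered by level within the D387A set, D387A Cflar-/- Mlkl-/- intestines stood first for Gzma, Gzmb, Prf1, Nkg7, Klrk1, Ncr1 and Il2rb. For Gzma, Gzmb, Prf1, Klrk1 and Il2rb its range overlapped that of no other genotype of the set, whereas for Nkg7 it overlapped the Fadd-/- group (0.863 to 1.81 against 0.449 to 1.11 RPKM) and for Ncr1 the 3 groups without Casp1. Below it the order was unsettled, because neighbouring genotypes overlapped for Gzma, Gzmb, Prf1, Nkg7 and Ncr1. Klrk1 and Il2rb were the exceptions, with the Fadd-/- group second, at 0.265 ± 0.0160 and 1.01 ± 0.115 RPKM, clear of the group ranked after it.

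Catalytically inactive caspase-8 went with the same genes at high levels while Cflar was present. In C362A Mlkl-/- against Mlkl-/- intestines 7 of 8 tested genes rose and none fell, beside 10.4% of all genes that rose. The median log2 fold change of the 8 was 3.28, beside 0.02 over all genes tested. Gzmb had 16, 17 and 6 reads in controls and 749, 504 and 590 in C362A Mlkl-/- intestines, with mean levels of 0.333 ± 0.131 and 15.4 ± 3.22 RPKM. It rose 44.9-fold (log2 fold change 5.49 ± 0.27, adjusted p = 1.84e-09), and the mutant libraries lay above every control, as for 28.4% of all genes.

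Klrk1 and Ncr1 rose far in this set. Klrk1 had 1, 5 and 12 reads in controls and 190, 205 and 179 in C362A Mlkl-/- intestines (log2 fold change 4.87 ± 0.41, adjusted p = 2.89e-07). Its size rested on the third control, with 12 reads, and was 5.94 without it. Ncr1, a marker of NK cells and related innate lymphocytes, had 2, 1 and 1 reads against 24, 23 and 24 (3.95 ± 0.51, adjusted p = 2.01e-05). The 3 mutant libraries agreed within narrow limits for both genes.

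Gzma rose from 116, 145 and 128 reads to 1033, 1002 and 978 (log2 fold change 2.87 ± 0.19, adjusted p = 2.44e-08), and at 35.9 ± 1.07 RPKM it was the highest value of the list in any genotype. Prf1 had 4, 2 and 1 reads against 38, 25 and 37 (3.70 ± 0.46, adjusted p = 1.64e-05). Nkg7 went from 11, 19 and 8 reads to 43, 29 and 49 (1.60 ± 0.35, adjusted p = 0.00172), with no overlap between the groups. Il2rb, with 76, 78 and 85 reads against 211, 154 and 181, rose by 1.10 ± 0.18 on the log2 scale (adjusted p = 0.000199), but without the first C362A Mlkl-/- library it came under the 2-fold threshold (0.97). Cd8a had 4, 12 and 5 reads against 10, 21 and 10 and did not pass (0.89 ± 0.48, adjusted p = 0.154), and Cd3e had 4, 6 and 5 against 1, 10 and 8.

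With Cflar deleted as well, C362A Cflar-/- Mlkl-/- intestines showed 6 of 8 genes higher than in Mlkl-/- controls and none lower, beside 13.4% of all genes that rose. Gzmb (500, 455 and 394 reads) and Gzma (904, 993 and 609 reads) had log2 fold changes of 5.12 ± 0.27 (adjusted p = 4.33e-09) and 2.69 ± 0.18 (adjusted p = 3.63e-08). Prf1, with 64, 40 and 37 reads, reached 4.28 ± 0.45 (adjusted p = 2.16e-06, 4.86 without the first control). Klrk1 rose by 3.86 ± 0.42 (adjusted p = 2.82e-06, 4.97 without the third control), Ncr1 by 3.24 ± 0.54 (adjusted p = 0.000166) and Nkg7 by 1.48 ± 0.35 (adjusted p = 0.00257), whereas Il2rb stayed under 2-fold (0.72 ± 0.18, adjusted p = 0.00408).

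Set directly against C362A Mlkl-/- intestines, Cflar loss gave a call for 1 of 8 genes, beside 4.62% of all genes that fell. Klrk1 had 79, 100 and 92 reads against 190, 205 and 179, and all 3 libraries lacking Cflar were lower (log2 fold change -1.01 ± 0.30, adjusted p = 0.0291). The change sat at the 2-fold threshold and the call was lost without any 1 of 5 of the 6 libraries, the exception being the third C362A Cflar-/- Mlkl-/- library. The 95% intervals for Gzma (-0.51 to 0.14) and Gzmb (-0.75 to 0.01) did not reach a 2-fold change in either direction.

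Casp1 loss also lowered genes of the list in the C362A set. In C362A Mlkl-/- Casp1-/- against C362A Mlkl-/- intestines 5 of 8 genes fell and none rose, beside 5.72% of all genes that fell. Gzmb had 749, 504 and 590 reads with Casp1 and 23, 26 and 23 without it, leaving 4.44% of the mean RPKM (log2 fold change -4.49 ± 0.25, adjusted p = 4.67e-08). Gzma had 192, 166 and 191 reads without Casp1, or 20.7% of its mean (-2.27 ± 0.18, adjusted p = 7.12e-07). Prf1 had 3, 3 and 4 reads, and it fell by 3.10 on the log2 scale (SE 0.44, adjusted p = 0.000109).

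Klrk1 fell by 1.95 (SE 0.32, adjusted p = 0.00033) and Il2rb fell by 1.42 (SE 0.18, adjusted p = 5.32e-05). Ncr1 had 10, 19 and 7 reads without Casp1 against 24, 23 and 24 with it, which left 57.9% of its mean and did not pass (-0.79 ± 0.35, adjusted p = 0.101). It passed only when the second Casp1-/- library, the one with 19 reads, was left out (-1.31, adjusted p = 0.0217). Nkg7 kept 65.5% of its mean (-0.61 ± 0.32, adjusted p = 0.162).

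The 2 NK receptors were still above control after Casp1 was gone. In C362A Mlkl-/- Casp1-/- against Mlkl-/- intestines Klrk1 had 39, 53 and 38 reads against 1, 5 and 12 (log2 fold change 2.92 ± 0.44, adjusted p = 0.00018, 3.98 without the third control), and Ncr1 had 10, 19 and 7 against 2, 1 and 1 (3.17 ± 0.55, adjusted p = 0.00058). These were 2 of 8 genes called, beside 6.79% of all genes that rose. Of 12 other NK receptor and adaptor genes tested 1 rose in this comparison, Tyrobp (1.01), an adaptor that myeloid cells also use. Every Casp1-/- library was above every control for both genes, as for 26.8% of all genes. Gzmb (1.00 ± 0.31, adjusted p = 0.0224) and Nkg7 (1.00 ± 0.36, adjusted p = 0.0442) lay just short of 2-fold, and Gzma had a log2 fold change of 0.60 ± 0.18 (adjusted p = 0.0213). Gzmb passed without the first or second control library (1.13 and 1.15) or without the first or the third Casp1-/- library (1.02 and 1.01), and Nkg7 passed without the second control (1.30).

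The differences between the sets were tested as interactions over all 30 intestines. For the effect of Cflar loss with mutant caspase-8 against Mlkl-/-, D387A minus C362A, 0 of 8 genes were called by edgeR, beside 0.0764% of all 19643 genes, and 3 (Prf1, Klrk1 and Il2rb) had an unadjusted p under 0.05. Klrk1 had the lowest p, with a log2 difference of -2.11 ± 0.60 (adjusted p = 0.0821), that is, a smaller rise in the D387A set. It was called without the third C362A Cflar-/- Mlkl-/- library (-2.12, adjusted p = 0.025) or without the third C362A-set control (-3.20, adjusted p = 0.0182). For Casp1 loss 0 of 8 were called, beside 5.73% of all genes, and 2 (Gzma and Prf1) had an unadjusted p under 0.05. Here the D387A groups lacked Cflar and the C362A groups had it, so the Casp8 allele and Cflar cannot be told apart. Prf1 differed by -1.91 ± 0.85 (adjusted p = 0.117), and was called without the third library of the D387A Casp1-/- group (-2.86, adjusted p = 0.0418).

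The balance of the 2 granzymes differed between genotypes. The ratio of Gzmb to Gzma RPKM lay between 0.0113 and 0.222 in the Mlkl-/- libraries of the D387A set and between 0.659 and 0.822 in D387A Cflar-/- Mlkl-/- libraries. It was 0.189 to 0.290 after Casp1 loss and 0.0603 to 0.0745 with Fadd deleted as well. In the C362A set it was 0.0328 to 0.0966 in controls, 0.352 to 0.508 in C362A Mlkl-/-, 0.321 to 0.453 in C362A Cflar-/- Mlkl-/- and 0.0839 to 0.110 after Casp1 loss from C362A Mlkl-/-. The ranges with and without Casp1 did not overlap in either set, and the ratio was given no test.

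Whole intestine cannot tell more cells of a type from more RNA per cell. Levels were also set against Ptprc, which encodes the pan-leukocyte protein CD45. This relates them to leukocyte RNA and does not separate cell number from RNA per cell either. Ptprc itself had 2.09 to 2.49 RPKM in the controls of the D387A set and 3.77 to 6.20 in D387A Cflar-/- Mlkl-/- intestines. Per 100 RPKM of Ptprc, Gzmb went from 1.47 to 29.2 in the controls to 251 to 263, and Prf1 from 0 to 0.812 up to 20.7 to 34.4. Nkg7 did not follow, with 28.7 to 41.1 in controls and 22.9 to 30.6 in mutants, and Il2rb ranges overlapped at 26.5 to 37.3 and 32.4 to 43.1. Klrk1 (4.30 to 8.44 and 8.50 to 11.1), Gzma (130 to 238 and 306 to 398) and Ncr1 (0 to 2.74 and 2.93 to 5.83) were above every control, Klrk1 narrowly. After Casp1 loss in the D387A set Klrk1 was at 2.34 to 4.50, Gzma at 46.4 to 62.6 and Gzmb at 11.1 to 17.0, each below its range with Casp1, and Gzma was also below every control.

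The C362A set was read the same way. Per 100 RPKM of Ptprc, Gzmb went from 5.92 to 17.1 in controls to 115 to 220 in C362A Mlkl-/- intestines, and Klrk1 from 0.448 to 4.96 up to 15.7 to 23.4. Klrk1 stayed at 13.5 to 19.9 after Casp1 loss, overlapping the range with Casp1, while Gzmb was at 19.6 to 23.3, far below its range with Casp1 and still above every control. Il2rb went the other way, from 34.8 to 43.3 in controls to 18.1 to 32.0. Prf1 went from 0.549 to 2.38 up to 3.17 to 6.22. Gzma (177 to 180 and 293 to 434) and Ncr1 (0.807 to 2.00 and 4.70 to 6.59) were also higher. Relative to Ptprc, Gzma, Gzmb, Prf1, Klrk1 and Ncr1 thus lay above their controls in both sets, whereas the ranges of Nkg7 overlapped in both (12.9 to 26.8 and 10.8 to 20.6 in the C362A pair).

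**Figure D3:**
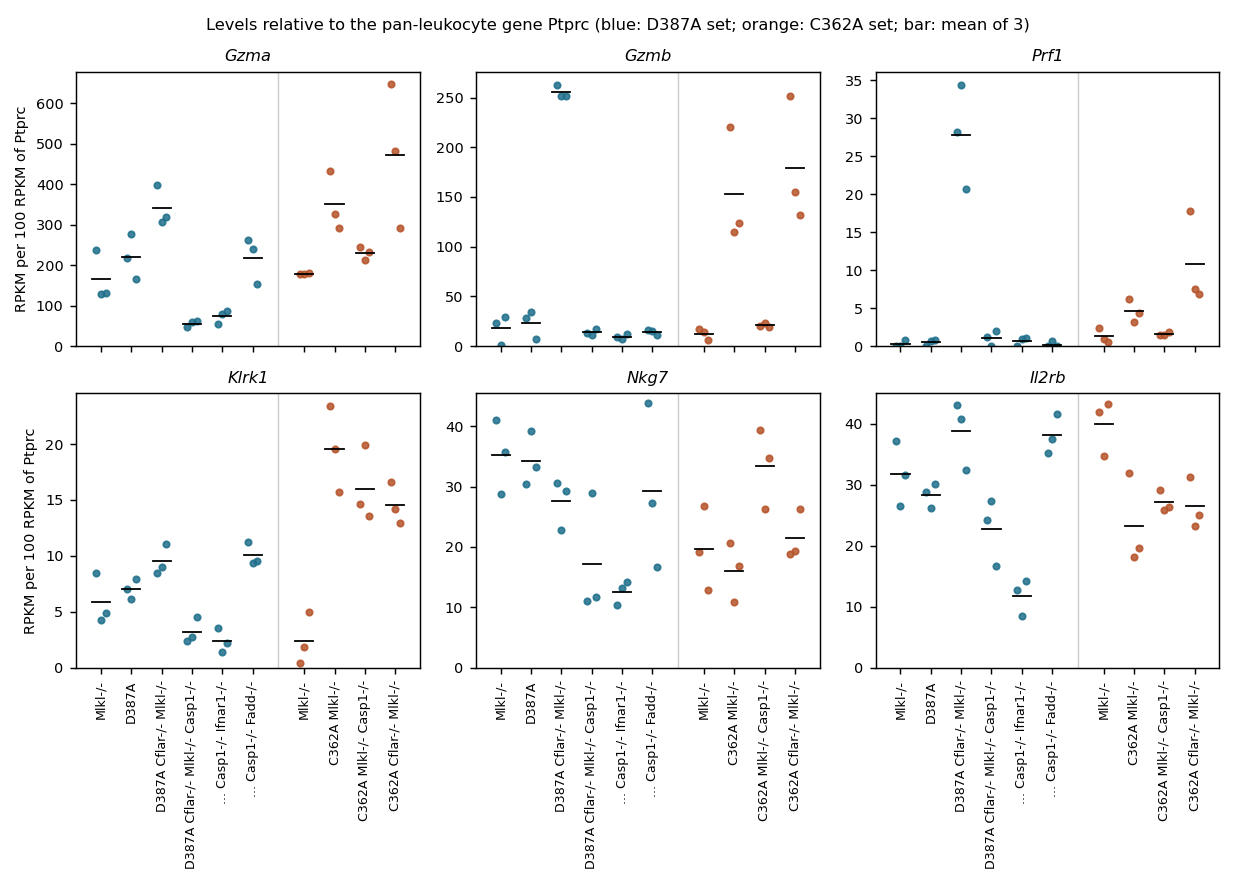
Level of 6 genes per 100 RPKM of Ptprc (y axis, linear from 0, its own scale in each panel) in each intestine library (points) by genotype, with the mean of 3 libraries as a bar and "..." for D387A Cflar-/- Mlkl-/-. Gzmb lies at 251 to 263 in D387A Cflar-/- Mlkl-/- and at 115 to 220 in C362A Mlkl-/- intestines, above all the controls, whereas Nkg7 ranges overlap between C362A Mlkl-/- intestines and their controls.

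Related genes were read from lists that do not hold the 9. Beside the counts below, 9.4% of all genes rose and 12.8% fell in D387A Cflar-/- Mlkl-/- against Mlkl-/- intestines, and 10.4% rose and 7.55% fell in C362A Mlkl-/- against Mlkl-/- intestines. Of 13 other granule and killing genes tested in D387A Cflar-/- Mlkl-/- against Mlkl-/- intestines 7 rose and 1 fell, with a median log2 fold change of 1.09. Gzmc, a further granzyme with close copies beside it on the chromosome, changed most (7.88, from 1 read in 3 controls), and the chemokine Ccl5 rose by 2.88, whereas Stxbp2, needed for granule release, fell by 1.25. Of 14 tested in C362A Mlkl-/- intestines 9 rose and none fell, led by Gzmc (6.95) and Ifng (6.03), which encodes interferon gamma.

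Among NK receptors and their adaptors 6 of 10 tested rose in D387A Cflar-/- Mlkl-/- intestines, including the Fc receptor Fcgr3 (1.76), which myeloid cells also carry, and Klrb1f (1.75). In C362A Mlkl-/- intestines 9 of 12 rose, led by Cd244a (2.34) and Klrc1 (2.27). None of the NK receptor and adaptor genes fell in either comparison. Of the ligands of NKG2D, stress proteins on target cells, 4 were tested, none rose, and H60b fell in both sets (-1.85 and -2.79).

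Genes of the T cell receptor complex and its signalling were divided. In D387A Cflar-/- Mlkl-/- intestines 2 of 11 rose, among them Lck (1.15), a kinase that NK cells also use, and 1 fell, Trdc (-2.10), the constant region of the delta chain, counts that are not far from the shares of all genes. Of 12 tested in C362A Mlkl-/- intestines 6 rose, led by Trbc1 (1.75), a constant region of the beta chain, while Trac, the constant region of the alpha chain, fell (-1.16).

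Lymphoid transcription factors gave 1 rise and 2 falls of 11 in the first comparison and 4 rises and 1 fall of 11 in the second. Runx3 rose in both (2.18 and 1.89), and Prdm1, a regulator of lymphocyte differentiation that epithelium also expresses, fell in the first (-1.68). Of the IL-2, IL-15, IL-12 and IL-18 axis 7 of 14 rose and 2 fell in D387A Cflar-/- Mlkl-/- intestines, with Il21r at 2.29 and Il12rb2 at 2.22. In C362A Mlkl-/- intestines 9 of 15 rose and none fell, among them Il12b (6.35) and the activation marker Il2ra (3.29). Of the homing and residency genes 3 of 10 and 8 of 10 rose, with the activation marker Cd69 at 4.79 in the second, while 2 of 10 and 0 of 10 fell, in the D387A set Cxcr3 (-1.66) and Itgae (-1.60), the integrin of intraepithelial lymphocytes. Of markers of lymphoid tissue inducer and group 3 innate lymphoid cells 0 of 3 rose and Cxcr5 (-1.26) fell in the first comparison, and 2 of 5, Ltb (1.64) and Tnfsf11 (1.45), rose in the second. The 1 thymocyte marker and the 6 fibroblast markers tested were called in neither.

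**Figure D4:**
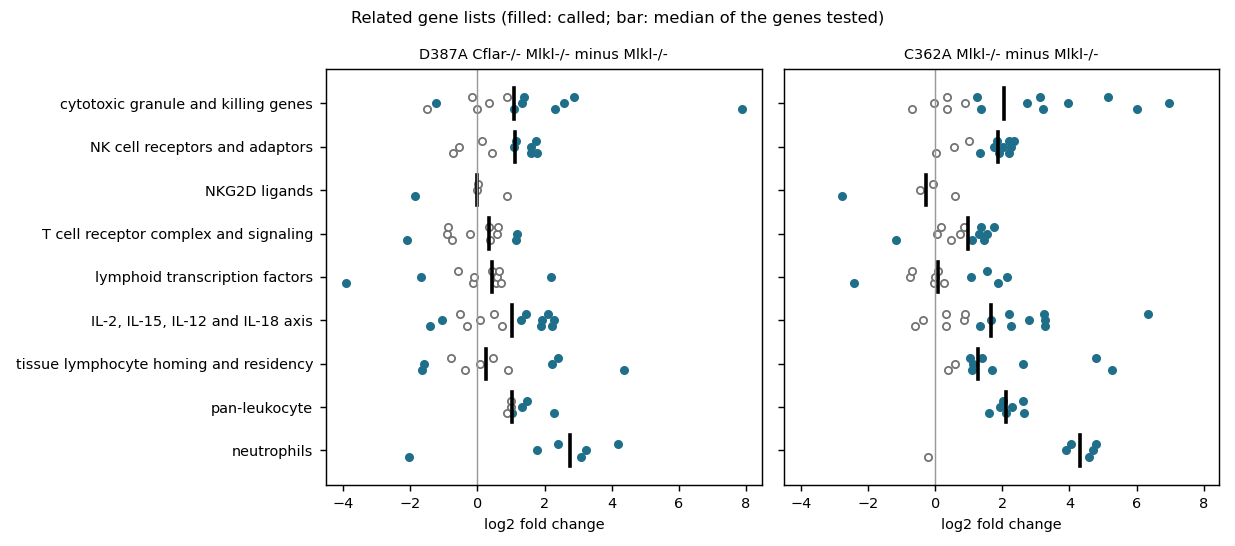
Log2 fold change (x axis) of each tested gene of 9 related lists in D387A Cflar-/- Mlkl-/- and in C362A Mlkl-/- intestines against their Mlkl-/- controls; filled points were called, open points were not, and the bar is the median of the list. The medians of granule genes were 1.09 and 2.05, those of NK receptors 1.11 and 1.86, and those of NKG2D ligands were about 0 in the left panel and at -0.26 in the right.

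After Casp1 loss some members of these lists fell. Over all genes 4.51% fell and 8.88% rose with Casp1 loss in the D387A set, 5.72% fell and 5.6% rose in the C362A set, and 2.56% rose with Fadd loss. In the D387A set 3 of 13 granule genes fell and 1 rose (Gzmc -6.68, the granule proteoglycan gene Srgn -2.05, Xcl1 2.00), and 4 of 10 NK receptor genes fell (Klrb1b -2.35). In the C362A set 5 of 14 granule genes fell, led by Ifng (-4.63) and Gzmc (-3.83), and 2 rose, the chemokines Ccl5 (1.80) and Xcl1 (1.80). There 6 of 12 NK receptor genes and 9 of 15 genes of the interleukin axis fell, among them Il2ra (-2.99). Fadd loss raised 3 of 13 granule genes, with Ccl5 (2.31) and Tnfsf10, the death ligand TRAIL (1.89), and 1 of 10 NK receptor genes, Cd160 (1.18).

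Markers of several other leukocytes differed between the same groups. The 7 pan-leukocyte genes summed to 31.3 to 35.9 RPKM in controls of the D387A set and 57.2 to 90.8 in D387A Cflar-/- Mlkl-/- intestines, where 4 of 7 rose, and to 37.05 to 47.2 after Casp1 loss, where 2 of 7 fell. In the C362A set they summed to 25.9 to 29.4 in controls, 108 to 119 in C362A Mlkl-/- intestines, where 7 of 7 rose, and 31.0 to 35.4 after Casp1 loss, where 6 of 7 fell. Neutrophil markers summed to 4.77 to 29.2 and then 63.4 to 237 RPKM in the D387A pair (5 of 6 rose, 1 fell), and to 14.2 to 44.6 and then 555 to 689 in the C362A pair (5 of 6 rose). After Casp1 loss they summed to 12.5 to 28.9 RPKM in the D387A set, where 4 of 6 fell, and to 23.4 to 32.4 in the C362A set, where 5 of 6 fell.

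Markers of mast cells and basophils, which can also make granzyme B, rose in 8 of 12 cases in D387A Cflar-/- Mlkl-/- intestines and in 6 of 13 in C362A Mlkl-/- intestines. Their sum was 16.2 to 18.4 RPKM in controls, 31.3 to 51.2 in D387A Cflar-/- Mlkl-/- intestines and 29.0 to 40.7 after Casp1 loss. In the C362A set it was 10.9 to 18.8 in controls, 25.5 to 35.1 in C362A Mlkl-/- intestines and 10.8 to 17.8 after Casp1 loss. Dendritic cell markers rose in 3 of 7 and 5 of 8 cases, and 1 fell in each. After Casp1 loss 5 of 8 fell in the C362A set and none rose, while in the D387A set 1 of 7 rose and 1 fell. Macrophage and monocyte markers rose in 4 of 9 cases and fell in 1 in D387A Cflar-/- Mlkl-/- intestines, with sums of 199.99 to 255 RPKM there, 131 to 145 in controls and 177 to 285 after Casp1 loss. With Casp1 loss 1 of 9 rose and 2 fell there. In C362A Mlkl-/- intestines 6 of 9 rose, and with Casp1 loss 5 of 9 fell and none rose, with sums of 378 to 398 and then 202 to 219 RPKM. None of 2 tested B cell markers was called in D387A Cflar-/- Mlkl-/- intestines (sums of 3.52 to 4.81 against 4.05 to 5.08 RPKM), and 3 of 3 rose in C362A Mlkl-/- intestines. Epithelial markers summed to 15940 to 16918 RPKM in D387A-set controls and 2496 to 2807 in D387A Cflar-/- Mlkl-/- intestines, where 2 of 8 fell, and 8827 to 10685 after Casp1 loss. In the C362A set they summed to 14071 to 22651 in controls, 4918 to 6064 in C362A Mlkl-/- intestines and 16057 to 20088 after Casp1 loss. With Fadd loss, in which Gzma and Klrk1 rose, 9 of 12 mast cell and basophil markers fell and 5 of 7 markers of spleen, pancreas and erythroid tissue fell. Of the last list 5 of 7 rose with Casp1 loss in the D387A set, a comparison that shares the D387A Cflar-/- Mlkl-/- Casp1-/- libraries. The part of these shifts in the results for the 9 genes was not tested.

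In MEFs the 9 genes had few reads or none. Gzma, Klrk1, Ncr1, Cd3e and Cd8a had 0 reads in all 6 MEF libraries, which allows up to 3 reads, or 0.0929 to 0.142 CPM, in each. Gzmb had 1 to 5 reads per library and 20 in all, Il2rb had 14 reads in 4 libraries (9 of them in 1 D387A Cflar-/- Mlkl-/- library), and Nkg7 and Prf1 had 1 read each. None of the 9 genes reached the test in MEFs, where 0.0711% of 15465 genes were called. The pooled reads of Il2rb were 12 in D387A Cflar-/- Mlkl-/- and 2 in Mlkl-/- MEFs, a ratio of 6.98 with a 95% counting interval of 1.55 to 64.2, which leaves out the spread between libraries. The Il2rb ratio rests mostly on the library with 9 reads, and for the other genes no difference between the MEFs was detectable at this depth.

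The genes whose pattern was most like each member were found over the 30 intestines after centring within each set, among 18196 genes, as a description. The libraries share genotypes and leukocyte content, so many genes move alike. Gzmb was nearest to Ccr7 (Pearson r = 0.96), the chemokine receptor of mature dendritic cells and T cells, and Prf1 to Gadd45g (0.96). Gzma was nearest to the Fc receptor Fcgr4 (0.93) and to Klrb1b (0.92), Klrk1 to the Fc receptor Fcgr1 (0.95), Il2rb to Ctla4 (0.88) and Nkg7 to Ly9 (0.78). Within the list Gzmb and Prf1 were most alike (0.93), Gzma and Gzmb came next (0.88), and Prf1 and Nkg7 were least alike (0.59).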

How the data were processed

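RNA sequencing libraries of E18.5 intestines and of MEFs were analysed, 3 for each genotype, and the groups and their replicates were taken from the sample labels. The controls of the D387A set were grouped by titles that say only Control. Their genotype, Mlkl-/-, is the one that the paper gives. The authors aligned reads with GSNAP to GRCm38 (mm10) and kept uniquely mapped reads, and they deposited counts of reads per gene, not normalized. The counting program, its annotation and its use of strand are not given in the sources used here, and the paper and the labels name different library kits. The authors also deposited RPKM values, which were used only to check library totals (reads on genes were 75.6 to 88.6% of the totals they imply). The paper calls the Mlkl-/- controls littermates for some of the mutant intestines. Which libraries shared a litter is not stated, so the fit did not pair them. The p-values measure the spread between these samples.

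Differences between genotypes were fitted by edgeR (version 4.0.16, under R 4.3.3) with its quasi-likelihood test. filterByExpr removed genes with few reads (minimum count 10, minimum total 15), and TMM gave the library scaling. P-values were adjusted by Benjamini-Hochberg over all genes kept, which were 18360 for the D387A intestines, 19408 for the C362A intestines, 15465 for MEFs and 19643 for interactions. The prior count was 0.125. Each SE was derived from the log2 fold change and its F statistic. RPKM was computed from the TMM-scaled counts and the gene width that the authors deposited beside each count. Symbols and coordinates came from GENCODE M21 (GRCm38), which held 52489 of the listed identifiers. Ratios of pooled reads have exact 95% intervals. Counting intervals and limits cover counting error only.

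The method was tested on simulated data. Of 200 changed genes in each set, 196 were recovered for the D387A intestines, 194 for the C362A intestines and 196 for MEFs. Recovery was not tested separately for genes with few reads or for changes near 2-fold. Pairs of replicates differed by 5.01 to 70.8 times Poisson noise, so none was a copy. The other settings tried were DESeq2 1.42.0, voom in limma 3.58.1, relative log expression scaling in place of TMM, no filter, a prior count of 2, a replicate block, only the groups compared and leaving out each library. All 9 members are named. Genes of the related lists are named from the 2 largest rises and 2 largest falls among called genes, for the comparisons described, and for each member the genes with the highest correlation. The members and lists were chosen with earlier results of these data known. Some genes counted in the lists are not reported here by name.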

Additional observations from a re-analysis of the deposited data

How the results depend on the processing

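Of 42 gene values called in at least 1 setting, 284 alternatives other than leave-outs kept direction and call, 5 lost the call, 4 gained it and 0 reversed. Leaving out 1 library kept 238, lost 15, gained 11 and reversed 0. With limma-voom, D387A Cflar-/- Mlkl-/- Casp1-/- against Mlkl-/- had 0 called genes in place of 1 (Gzma, adjusted p = 0.0626), and the interaction of Casp1 loss had 1 in place of 0 (Prf1, -2.32, adjusted p = 0.0486). With only the groups compared, the Fadd-/- group against Mlkl-/- had 1 in place of 0 (Klrk1, 1.00, adjusted p = 0.0472), Fadd loss had 1 in place of 2 (Klrk1 lost, adjusted p = 0.078), and Cflar loss in C362A had 0 in place of 1. Cflar loss in C362A also had 0 without the filter and 0 with a prior count of 2, each time for Klrk1. The cause of these differences was not tested.

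Leaving out 1 library at a time gave 0 to 0 called genes for D387A, 5 to 5 for D387A Cflar-/- Mlkl-/-, 0 to 1 with Casp1 deleted as well, 0 to 0 with Ifnar1 and 0 to 0 with Fadd, each against Mlkl-/-. It gave 5 to 6 for Casp1 loss, 0 to 1 for Ifnar1 loss and 1 to 2 for Fadd loss among D387A intestines. Among C362A intestines it gave 6 to 7 for C362A Mlkl-/-, 2 to 4 with Casp1 deleted and 6 to 6 with Cflar deleted, against Mlkl-/-, 5 to 6 for Casp1 loss and 0 to 1 for Cflar loss. It gave 0 to 0 in MEFs and 0 to 1 for each interaction.

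Same-numbered samples deviated together (every r above 0.1) in 2 of 14 comparisons, with r from -0.44 to 0.31, so the numbers were not taken to pair samples. With the replicate block 1 gene value changed its call, Gzmb in C362A Mlkl-/- Casp1-/- against Mlkl-/- (1.02, adjusted p = 0.0171). Depth limited Prf1, Klrk1, Ncr1, Cd3e and Cd8a, whose controls hold few reads, so their fold changes are poorly determined. A missing call for these genes does not show that they were unchanged.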
